A study of Mus musculus with 22 samples.

Results

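Described here are 10 genes of the Wnt-driven stem cell programme at the base of the mouse colon crypt: Lgr5, Lgr4, Rnf43, Znrf3, Axin2, Nkd1, Notum, Ascl2, Sox9 and Smoc2. They were chosen by name and by role, with earlier results of these libraries known, from the 24421 genes of the count files, and all 10 were found there and passed the filter on low counts. Their mRNA was measured by bulk RNA sequencing in 6 sorted cell types of the colon epithelium, and the exon skipping and polyadenylation site tables of the same cells were searched for their events.

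The cells came from the colons of untreated wild type male C57BL/6N mice aged 5 to 7 weeks, and every population was live and positive for Epcam, a surface protein of epithelial cells, and negative for Cd31 and Cd45, which mark endothelial and blood cells. Stem cells (n = 3 libraries) were sorted as Cd44 highest, Cd24 low and Ckit negative. Absorptive progenitors (AbsPro, n = 3) had medium to high Cd44 with low Cd24 and no Ckit. The SecPDG gate (n = 4), which holds secretory progenitors, deep crypt secretory cells and some goblet cells, took high Cd44 with medium Cd24 and medium Ckit by the sample labels. The paper instead gives its Cd44 as medium and reports Kit protein as detectable in tuft cells alone. Tuft cells (n = 5), chemosensory cells, were Ckit positive and Cd24 high. Enterocytes (n = 5), the mature absorptive cells, had low or no Cd44 and no Cd24, and enteroendocrine cells (EEC, n = 2), which make hormones, had low or no Cd44 with Cd24. All gates are enriched populations and not pure cells. Replicates came from separate mice and sorts, each Stem and AbsPro library from 1 mouse and the other libraries from pools of several mice, so that each library held at least 2500 cells.

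In canonical Wnt signalling, a Wnt ligand binds a Frizzled receptor with an Lrp co-receptor, the complex that degrades beta-catenin is switched off, and beta-catenin enters the nucleus to turn on genes through TCF and LEF proteins. R-spondins bound to Lgr receptors keep the ubiquitin ligases Rnf43 and Znrf3 from removing Frizzled, which strengthens the signal. Several targets of the pathway, among them Axin2, Rnf43, Znrf3, Nkd1 and Notum, are themselves inhibitors and form its negative feedback, and in the gut Lgr5 and Ascl2 mark the cycling stem cells of the crypt base.

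In the GENCODE annotation of GRCm38, the R-spondin receptor genes are Lgr5 (ENSMUSG00000020140) at chr10:115450311-115587780 on the minus strand and Lgr4 (ENSMUSG00000050199) at chr2:109917647-110014257 on the plus strand. The ubiquitin ligase genes are Rnf43 (ENSMUSG00000034177) at chr11:87662722-87735539 on the plus strand and Znrf3 (ENSMUSG00000041961) at chr11:5276324-5444847 on the minus strand. The feedback inhibitors are Axin2 (ENSMUSG00000000142) at chr11:108920349-108950783 on the plus strand, Nkd1 (ENSMUSG00000031661) at chr8:88521354-88594884 on the plus strand and Notum (ENSMUSG00000042988) at chr11:120653788-120661175 on the minus strand. The transcription factor genes are Ascl2 (ENSMUSG00000009248) at chr7:142966829-142969264 on the minus strand and Sox9 (ENSMUSG00000000567) at chr11:112782224-112787760 on the plus strand, and the matricellular gene is Smoc2 (ENSMUSG00000023886) at chr17:14279506-14404790 on the plus strand.

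A pair of promoters and a group of exons carry the points to which the results return. The promoters are those of Axin2 and Nkd1, feedback inhibitors that act inside the cell and whose mRNA levels moved in opposite directions in Tuft cells. They are given in the genome build GRCm38.p6 from RefSeq, 250 bases before to 50 bases after the annotated start, both on the plus strand, for Axin2 at chr11:108920099-108920398 and for Nkd1 at chr8:88527383-88527682. The Nkd1 start in RefSeq lies inside the gene as GENCODE annotates it, and the sequence at the GENCODE start was not searched.
Axin2: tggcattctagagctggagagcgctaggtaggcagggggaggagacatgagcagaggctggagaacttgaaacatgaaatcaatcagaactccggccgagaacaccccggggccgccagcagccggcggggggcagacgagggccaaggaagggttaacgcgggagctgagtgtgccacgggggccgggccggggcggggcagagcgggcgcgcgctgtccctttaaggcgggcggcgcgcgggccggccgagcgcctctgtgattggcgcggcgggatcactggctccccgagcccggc
Nkd1: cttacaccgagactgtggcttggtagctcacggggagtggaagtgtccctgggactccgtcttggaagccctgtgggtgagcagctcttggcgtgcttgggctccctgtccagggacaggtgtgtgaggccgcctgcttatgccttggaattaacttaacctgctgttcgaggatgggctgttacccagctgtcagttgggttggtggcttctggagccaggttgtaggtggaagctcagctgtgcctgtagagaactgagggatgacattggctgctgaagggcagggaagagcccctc

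The Axin2 window held 70.0% G and C and the Nkd1 window 58.3%. Both strands were searched for 3 cores of 7 letters that TCF and LEF proteins are known to bind, which differ in their last letters, so that no more than 1 of them can match at a base. Neither window held any of them, nor did those of Lgr4, Ascl2 or the 2 annotated starts of Rnf43, so there are no capitals in the printed runs. Of 32851 promoter windows of the same length, 5.14% held the core CTTTGAA. The core CTTTGAT was in 3.73% of them. The core CTTTGTT was in 5.85% of them, and 13.87% held at least one of the 3. Promoters of Lgr5, Znrf3, Smoc2, Sox9 and Notum were not analysed here.

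The exons are the second, the third and the fourth of 18 in the Lgr4 transcript Lgr4-201, on the plus strand of chromosome 2 in build GRCm38 (chr2:109970692-109970763, chr2:109989705-109989776 and chr2:109991104-109991175). They are shown because they are the parts of any of the 10 genes whose skipping was counted in all 5 comparisons with Stem cells.
Lgr4 exon 2: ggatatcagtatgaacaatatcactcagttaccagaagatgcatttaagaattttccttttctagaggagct
Lgr4 exon 3: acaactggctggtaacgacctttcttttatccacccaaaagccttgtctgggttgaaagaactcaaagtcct
Lgr4 exon 4: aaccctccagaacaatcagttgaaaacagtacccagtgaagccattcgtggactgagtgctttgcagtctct

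Each is 72 bases long and wholly coding, so leaving one out keeps the reading frame, and 9 of the 18 exons of Lgr4-201 have this length, as do 9 of the 18 exons of the Lgr5 transcript Lgr5-201. Leucine-rich repeats, of which the outer part of the Lgr receptors is built, are the textbook feature of this stretch of the gene. The 3 exons shared 36.1% to 37.5% of their bases position by position, and the annotated transcript Lgr4-202 lacks exon 2.

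Reads counted on genes ranged from 15314543 to 22462518 per library in Stem, AbsPro and SecPDG cells, from 9930648 to 20892532 for Tuft cells, from 5950619 to 12966128 for Enterocytes and from 4122122 to 13132315 for EECs. The share of counted reads lying outside genes was 40.85% to 49.37% in the first 3 types, 43.45% to 68.05% for Tuft cells, 66.8% to 83.08% for Enterocytes and 64.54% to 89.74% for EECs. As a yardstick for reads that do not come from the gene named, 1510 genes of the olfactory, vomeronasal, trace amine and keratin-associated families were read per base of exon. They were taken by family name as little used in the colon. Whether some of them are expressed in these cells was not tested, so the yardstick may hold more than background. Each member's level is set against that family level where it mattered. Levels are given as normalised read counts (counts scaled by TMM factors to a library of average size) and, where genes are compared with each other, as reads per kilobase of exon and per library size (RPKM). A member was called when its adjusted p in edgeR's quasi-likelihood test lay under 0.01 over all 22781 genes tested and its mean was at least 50 normalised counts.

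Marker sums matched the sort for some types and not for others. The summed level of 7 measured tuft cell markers was 26427 to 71188 in Tuft libraries and 49.3 to 93.7 in Stem libraries. Both EEC libraries carried tuft cell markers too, with sums of 4268 and 9062. The highest such sum in any remaining type was 1000.5, found in an Enterocyte library. The summed level of 8 enteroendocrine markers was 598647 to 1716956 in EECs and 163 to 499 in Stem cells. In between lay AbsPro at 3221.5 to 14706, SecPDG at 2072.5 to 5811, Tuft cells at 1574 to 27164 and Enterocytes at 7178 to 27245. The 8 enterocyte markers did not set Enterocytes apart, at 53614 to 80753 there, 76097 to 116480 in AbsPro, 23342 and 148854 in the EECs and 13817 to 25516 in Stem cells. Goblet and deep crypt secretory markers (8 genes) were at 21440 to 35065 in Stem cells, 821556 to 3238267 in SecPDG, 783635 to 1181253 in Tuft cells and 237290 to 710405 in Enterocytes. AbsPro libraries held 90876 to 280427 of them and the EECs 37418 and 62147. Endothelial and stromal markers were higher in Enterocytes and EECs than in Stem cells. Sums of 4 endothelial markers were 9.6 to 18.9 in Stem cells, 334 to 783 in Enterocytes and 826 and 1340 in EECs. Sums of 8 stromal markers were 84.9 to 301 in Stem cells, 497 to 1464 in Enterocytes and 446.5 and 2793 in EECs. Sums of 12 immune markers were 435 to 841 for Stem, 1847 to 3764 for Tuft and 766.5 to 1796 for Enterocyte libraries, and 1054 and 3384 for the EEC libraries, where Cd79a was at 0. The summed level of 8 proliferation genes was 35388 to 46997 for Stem cells, with SecPDG at 37184 to 47071, AbsPro at 24193 to 32715, Tuft cells at 16164 to 30275, Enterocytes at 3353 to 12824 and EECs at 1895 to 2990.2. It was lowest in the 2 types in which most members were lowest. The part of these other cells and of proliferation in the members' levels was not tested. In bulk libraries, fewer cells that carry an mRNA and less of that mRNA in each cell cannot be told apart.

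Most of the 10 genes stood highest in Stem cells and lowest in Enterocytes and EECs. Of the 10, AbsPro had 1 called lower than Stem cells, SecPDG had 2, Tuft cells had 4, Enterocytes had 7 and EECs had 8, beside 0.0219%, 0.689%, 2.03%, 7.93% and 7.45% of all genes tested. One member was called higher than in Stem cells, Nkd1 in Tuft cells, where 4.42% of all genes were higher. No member was called higher in AbsPro (0.342% of all genes), SecPDG (2.41%), Enterocytes (5.6%) or EECs (6.58%). The median log2 fold change of the 10 members against Stem cells was -1.12 for AbsPro, -0.89 for SecPDG, -0.90 for Tuft cells, -2.57 for Enterocytes and -2.79 for EECs, where the medians of the 13188 genes with a mean of at least 50 counts were 0.04, -0.05, -0.09, -0.30 and -0.33. These 5 comparisons share the Stem libraries and are not independent of each other. With DESeq2's scaling factors the medians of those genes moved to 0.21 for Tuft cells, 0.36 for Enterocytes and 0.53 for EECs, and the members split into 2 lower and 1 higher in Tuft cells and 6 lower and 1 higher, Nkd1, in EECs. With the 2 types alone in the fit, Rnf43 was the one member called in EECs. With library totals alone the split was 2 lower and 1 higher in Tuft cells and 6 lower in EECs.

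**Figure D1:**
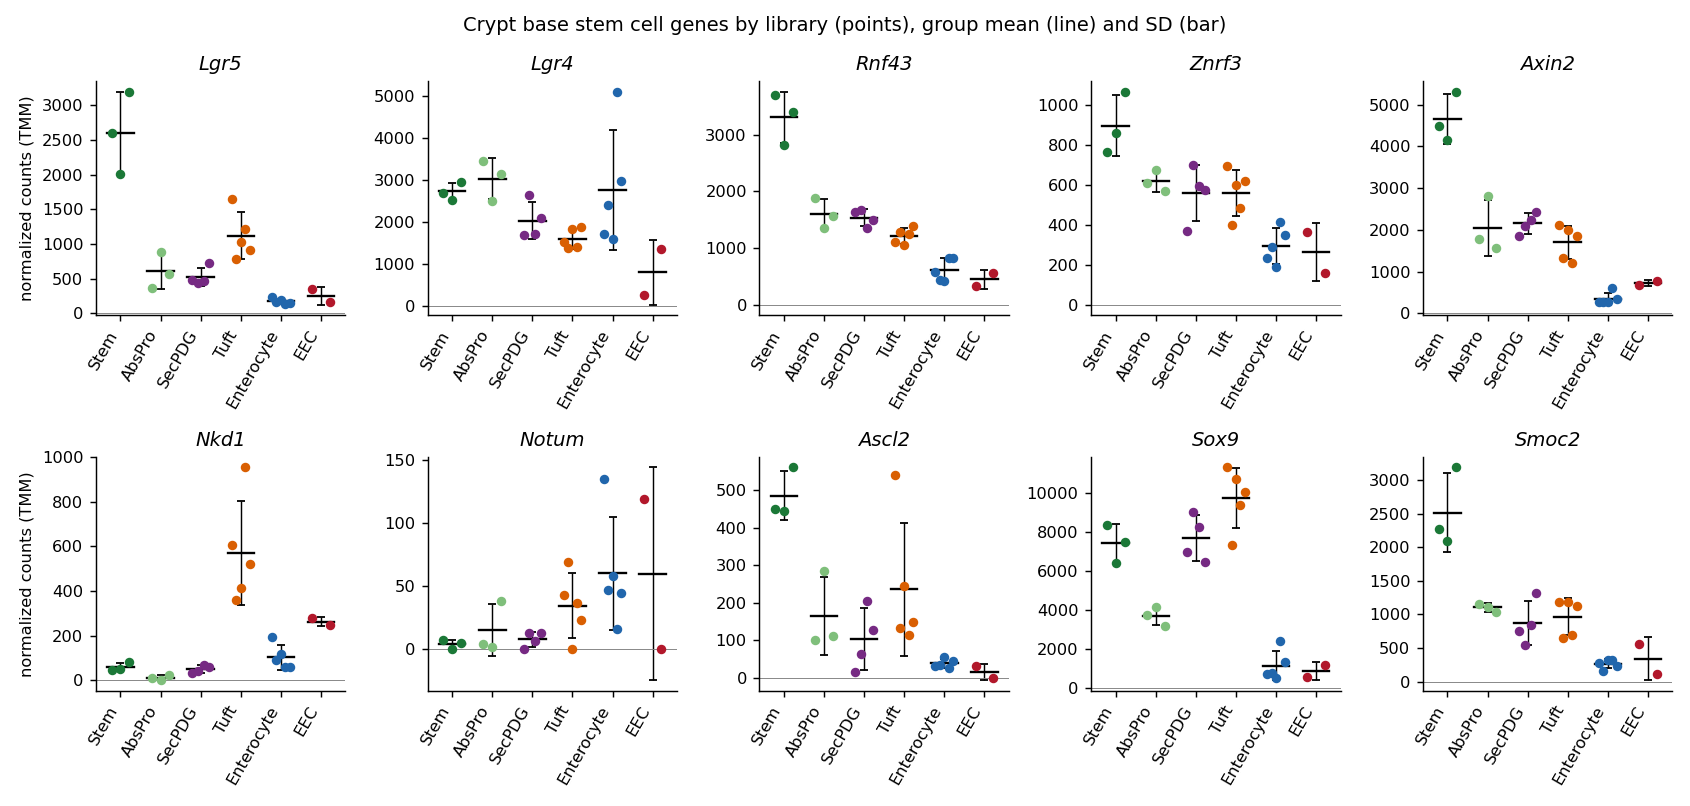
Normalised read counts of the 10 members in each of the 22 libraries by sorted cell type, on linear axes that differ between genes, with a point for each library, a line for the group mean and a bar for the SD. Lgr5 lay between 2006 and 3197 in Stem libraries and between 138 and 234 in Enterocytes, whereas Nkd1 was highest in Tuft cells at 358 to 954.

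Lgr5, the R-spondin receptor that marks crypt base stem cells, was the one member called in both progenitor types. Its normalised counts were 2594, 2006 and 3197 in the Stem libraries, 368, 889.8 and 567 in AbsPro, and 482, 441, 465 and 718 in SecPDG. It stood at 1651, 788, 1029, 1209 and 915 in Tuft cells, at 234, 157, 187, 138 and 154 in Enterocytes and at 347 and 163 in EECs. Every Stem library was above every library of every other type, Tuft cells came second, and the ranges of Tuft, AbsPro and SecPDG cells overlapped from one neighbour to the next in that order.

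Against Stem cells, Lgr5 mRNA was 4.27-fold lower in AbsPro (log2 fold change -2.10 ± 0.37 SE, adjusted p = 0.00226) and 4.93-fold lower in SecPDG (-2.30 ± 0.34, adjusted p = 1.32e-05). It was 2.32-fold lower in Tuft cells (adjusted p = 0.00716), 14.9-fold lower in Enterocytes (adjusted p = 8.02e-10) and 10.2-fold lower in EECs (adjusted p = 2.92e-06). The drop to Tuft cells was the smallest of these, and the libraries of Tuft cells (mean 1118 ± 336 SD, n = 5) did not overlap those of SecPDG (527 ± 129, n = 4), with adjusted p = 0.0386 for a 2.12-fold difference, short of the threshold. The call in AbsPro was lost without Stem library 1 or 3 or AbsPro library 1 or 3, and also with DESeq2's scaling factors. That in Tuft cells was lost without any 1 of the Stem libraries or Tuft libraries 2, 3, 4 and 5, and with DESeq2's scaling factors, library totals or DESeq2 itself. In Enterocytes and EECs the family level amounted to 13.1% and 10.5% of the Lgr5 reads.

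Lgr4, the paralogous R-spondin receptor that is known to be expressed more widely, did not follow Lgr5. Its counts were 2697, 2529 and 2945 in Stem cells, 3455, 2487 and 3149 in AbsPro, 1695, 2628, 1702 and 2089.0 in SecPDG and 1531, 1369, 1829, 1397 and 1877 in Tuft cells. Enterocytes held 1723, 2396, 1599, 5095 and 2973, and the EEC libraries 260.3 and 1352. Levels in Stem, AbsPro and Enterocyte libraries overlapped throughout, while both EEC libraries lay below every Tuft library.

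The difference between Enterocytes and Stem cells was 0.02 ± 0.38 on the log2 scale (adjusted p = 0.973), with the sign changing under other settings. Only EECs passed the test, at 3.37-fold lower (log2 fold change -1.75 ± 0.50, adjusted p = 0.00746), and this call was lost without EEC library 1 or Stem library 1. Per length, Lgr4 and Lgr5 were nearly level in Stem cells, with a median Lgr4 to Lgr5 ratio of RPKM of 0.968 (range 0.858 to 1.18). The median ratio was 5.18 for AbsPro, 3.34 for SecPDG, 1.62 for Tuft cells, 14.2 for Enterocytes and 4.22 for EECs, and Lgr4 exceeded Lgr5 in all 5 Enterocyte libraries (lowest ratio 6.86). The 2 EEC libraries disagreed, with ratios of 0.6987 and 7.745, and Tuft libraries ranged from 0.8635 to 1.911.

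Rnf43 and Znrf3, the membrane ubiquitin ligases that clear Frizzled receptors, stood highest in Stem cells and stepped down more evenly than Lgr5. Rnf43 counts were 3703, 2817 and 3410 in Stem cells, 1887, 1350.1 and 1571 in AbsPro, 1635, 1666, 1355 and 1496 in SecPDG, and 1113, 1283, 1045, 1242 and 1383 in Tuft cells. They were 567, 435, 412, 819 and 829.4 in Enterocytes and 331 and 559 in EECs. All 3 Stem libraries were above all others, the 2 progenitor types and Tuft cells overlapped in a middle tier, and Enterocytes and EECs overlapped in a low one.

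For Rnf43 the fold below Stem cells was 2.73 in Tuft cells (log2 fold change -1.45 ± 0.28, adjusted p = 0.000458), 5.4 in Enterocytes (adjusted p = 1.61e-07) and 7.42 in EECs (adjusted p = 3.25e-06). In the progenitors the differences of 2.07-fold in AbsPro (adjusted p = 0.156) and 2.15-fold in SecPDG (adjusted p = 0.0185) did not pass, although no progenitor library reached the lowest Stem library. In both types Rnf43 was called with DESeq2, with its scaling factors in edgeR, with library totals and with the 2 types alone in the fit.

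Znrf3 was the weaker of the pair throughout, with 8.32 ± 1.43 RPKM (SD, n = 3) in Stem cells against 53.3 ± 7.27 for Rnf43. Its counts were 767, 859 and 1067 in Stem cells. AbsPro libraries held 569 to 677, SecPDG 369 to 699.9, Tuft cells 400.0 to 697 and Enterocytes 189.5 to 412, and the EECs 160.2 and 365. The progenitor and Tuft ranges overlapped each other and lay below all Stem libraries, without a call. Enterocytes were 3.05-fold lower than Stem cells (adjusted p = 0.000258) and EECs 3.43-fold lower (adjusted p = 0.00208), and the EEC call was lost without EEC library 2 and with DESeq2's scaling factors, library totals, the 2 types alone in the fit or DESeq2. The family level reached 12.8% and 17.1% of the Znrf3 reads in those 2 types.

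Axin2, the scaffold of the beta-catenin degradation complex and a standard read-out of Wnt activity, had 79.9 ± 10.2 RPKM in Stem cells. Its counts were 4499, 4155 and 5315 in Stem cells, 1785, 2801 and 1556 in AbsPro and 1851, 2089.9, 2237 and 2438 in SecPDG. Tuft libraries held 2109, 1325, 1996, 1209.9 and 1853, Enterocytes 281, 260.4, 273, 594 and 332, and EECs 671 and 781. The Stem libraries stood alone at the top, progenitors and Tuft cells shared a middle range, and both EEC libraries were above every Enterocyte library.

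Compared with Stem cells, Axin2 was 2.74-fold lower in Tuft cells (adjusted p = 0.000957), 13.4-fold lower in Enterocytes (log2 fold change -3.74 ± 0.31, adjusted p = 7.84e-10) and 6.41-fold lower in EECs (-2.68 ± 0.43, adjusted p = 2.43e-05). Both progenitor types had means of 44.0% (AbsPro) and 46.3% (SecPDG) of the Stem mean, and these differences did not pass (adjusted p = 0.124 and 0.0294). DESeq2 called both, and in SecPDG edgeR did so too with either other scaling or with the 2 types alone in the fit. Axin2 shares 209 exon bases with an antisense gene, and the counting did not use strand.

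Nkd1, an inhibitor that binds Dishevelled, went the other way. Its counts were low in Stem cells at 45.1, 50.6 and 79.5, in AbsPro at 10.6, 0.0 and 24.4, and in SecPDG at 30.3, 41.0, 67.4 and 59.7. In Tuft cells they were 604, 358, 411, 954 and 522, in Enterocytes 193, 88.3, 116, 57.0 and 58.2, and in EECs 277 and 248. All 5 Tuft libraries were above every library of the other types, the EECs came next without overlap, and Enterocytes overlapped Stem cells.

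Nkd1 was 9.73-fold higher in Tuft than in Stem cells (log2 fold change 3.28 ± 0.67, adjusted p = 0.000899). The EECs were 4.48-fold higher than Stem cells, a difference that missed the threshold (adjusted p = 0.0173) and was called with DESeq2 and with its scaling factors, and AbsPro was 5.03-fold lower without passing (adjusted p = 0.148). The family level made up 1.8% of the Nkd1 reads in Tuft cells, 9.2% in EECs and 21.9% in Enterocytes. Because the EEC libraries also carried tuft cell markers, tuft cells may add to their Nkd1 level, which was not tested. In Stem cells the median Axin2 to Nkd1 ratio of RPKM was 87.9 (range 71.5 to 107), and in Tuft cells it was 3.80 (1.36 to 5.20).

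Notum, a secreted enzyme that inactivates Wnt ligands by removing their lipid, was low in every type. Stem libraries held 0.0 to 6.9 counts, AbsPro 1.6 to 38.5, SecPDG 0.0 to 12.7 and Tuft cells 0.0 to 69.4. Its counts were 16 to 135 in Enterocytes, and were 119 and 0.0 in the EECs. Its mean fell short of 50 counts, so it could not be called, and no comparison reached an adjusted p under 0.01 (0.0683 for Enterocytes against Stem cells, the lowest of those against Stem). The family level was 12.6% of the Notum reads in Stem cells and 24.7% in EECs, and 708 of its exon bases lie under an antisense gene and 210 under another, so these reads cannot be given to Notum with certainty.

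Ascl2, a transcription factor that keeps the stem cell state, had its highest mean in Stem cells and was carried by few reads in Enterocytes and EECs. Its counts were 449.8, 445 and 560.0 in Stem cells, 99.6, 284 and 111 in AbsPro, 17.0, 64.6, 206 and 127 in SecPDG and 539.5, 134, 244, 115 and 149 in Tuft cells. In Enterocytes they were 30.7, 35.6, 56.6, 26.2 and 45.7, and in EECs 30.7 and 0.0. Tuft library 1 lay within the Stem range while the other Tuft libraries were below it. The Tuft mean was 48.7% of the Stem mean, a difference that did not pass in edgeR (adjusted p = 0.23).

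Ascl2 was 12.4-fold lower in Enterocytes than in Stem cells (log2 fold change -3.63 ± 0.70, adjusted p = 0.00026) and was called lower in EECs (adjusted p = 0.00107), where its mean was 3.2% of the Stem mean and the call was lost with DESeq2's scaling factors, library totals or the 2 types alone in the fit. The family level was 19.9% of the Ascl2 reads in Enterocytes and 69.1% in EECs, so most of the EEC value was no higher than that yardstick. Means of 34.0% of Stem in AbsPro and 21.4% in SecPDG did not pass (adjusted p = 0.384 and 0.062), although SecPDG did with the 2 types alone in the fit, with no library of either type in the Stem range.

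Sox9, a transcription factor of crypt base and secretory cells, had the highest level per length of the members, 131 ± 17.5 RPKM in Stem cells. Its counts were 8360, 6391 and 7493 in Stem cells, 3709, 4130.0 and 3177 in AbsPro, 6955, 9031, 8247 and 6461 in SecPDG and 11322, 7329, 10726, 9369 and 10038 in Tuft cells. Enterocytes held 673, 771, 515, 2378 and 1327 and EECs 529.7 and 1183. Thus Stem, SecPDG and Tuft cells formed one high tier with overlapping ranges, AbsPro lay in the middle without overlap, and Enterocytes and EECs lay lowest.

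Sox9 was 6.54-fold lower in Enterocytes than in Stem cells (adjusted p = 3.81e-06) and 8.65-fold lower in EECs (adjusted p = 8.89e-05). Its difference from Stem cells was 0.05 ± 0.40 on the log2 scale in SecPDG (adjusted p = 1) and 0.40 ± 0.39 in Tuft cells (adjusted p = 0.45), and the SecPDG value turned negative under library totals. AbsPro, at 49.5% of the Stem mean, did not pass (adjusted p = 0.309), but was called with DESeq2 and with the 2 types alone in the fit.

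Smoc2, a secreted matricellular protein used as a marker of Lgr5 cells, came closest to the pattern of Lgr5 among the members. Its counts were 2267, 2088 and 3187 in Stem cells, 1161, 1113 and 1033 in AbsPro, 753, 548, 839.9 and 1321 in SecPDG and 1185, 642, 1186, 689 and 1129 in Tuft cells. In Enterocytes they were 272, 163, 324, 325 and 234, and in EECs 566 and 113. The Stem libraries were above all others, and progenitors and Tuft cells overlapped.

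Smoc2 was 2.9-fold lower in SecPDG than in Stem cells (log2 fold change -1.54 ± 0.38, adjusted p = 0.0089) and 2.6-fold lower in Tuft cells (adjusted p = 0.00705). It was 9.54-fold lower in Enterocytes (adjusted p = 9.66e-08) and 7.44-fold lower in EECs (adjusted p = 9.87e-05), and 2.28-fold lower in AbsPro without passing (adjusted p = 0.219) except with the 2 types alone in the fit. The SecPDG call was lost in 13 of 22 fits without a library, among them each Stem library in turn, and with DESeq2's scaling factors or no filter on low counts. The Tuft call was lost in 6 of 22, also with each Stem library, and with DESeq2's scaling factors, library totals or DESeq2.

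**Figure D2:**
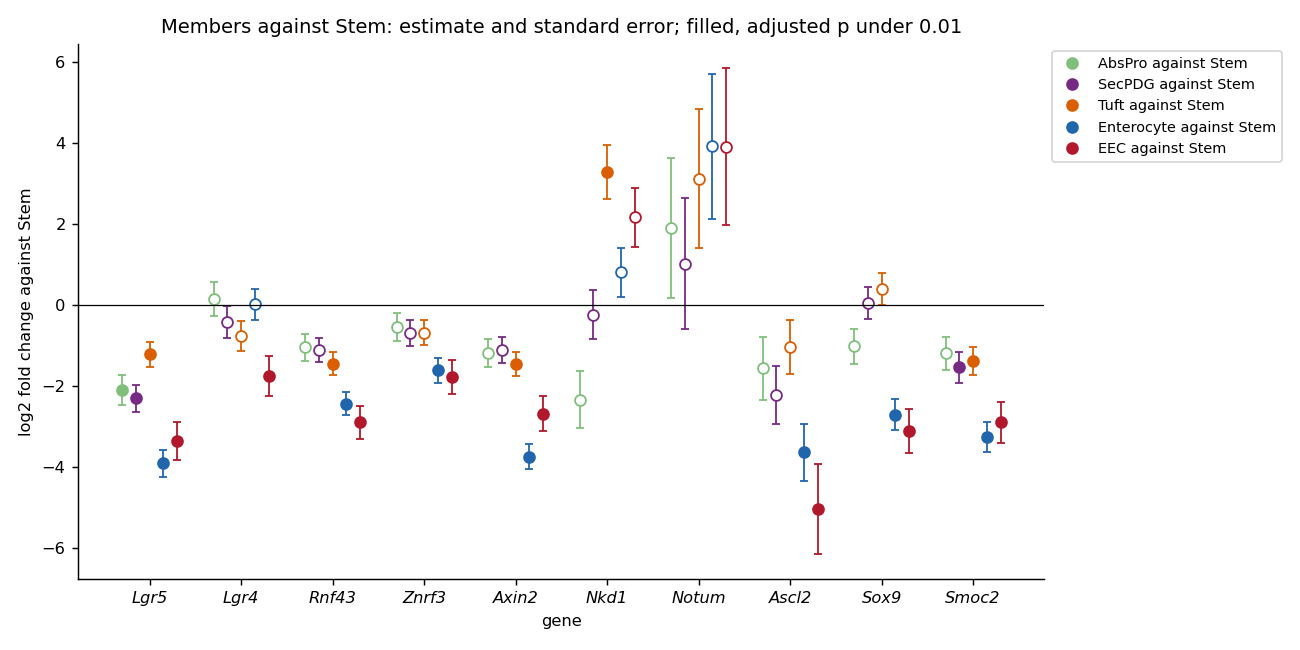
Log2 fold change of each member against Stem cells in AbsPro, SecPDG, Tuft, Enterocyte and EEC cells from edgeR, with the standard error as a bar and a filled point where adjusted p was under 0.01 and the mean at least 50 counts. The points of Enterocytes and EECs lie far below 0 for 7 and 8 members, while the filled Nkd1 point of Tuft cells lies at 3.28.

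The absorptive line could also be followed from progenitor to mature cell. Enterocytes against AbsPro gave 5 members lower and 1 higher, beside 3.18% and 1.91% of all genes. Axin2 dropped most firmly (5.88-fold, log2 fold change -2.56 ± 0.30, adjusted p = 3.17e-06), followed by Smoc2 (4.18-fold, adjusted p = 0.000336), Lgr5 (3.5-fold, adjusted p = 0.000381), Sox9 (3.24-fold, adjusted p = 0.003) and Rnf43 (2.62-fold, adjusted p = 0.00146). Nkd1 was 8.8-fold higher (adjusted p = 0.00295), set against AbsPro libraries of 10.6, 0.0 and 24.4 counts, and the call was lost without AbsPro library 1 or 2. Nkd1 also lost its call with the 2 types alone in the fit. Lgr5 lost its call without AbsPro library 2 and with DESeq2's scaling factors, library totals or DESeq2, Smoc2 with either other scaling, and Sox9 without AbsPro library 2 or Enterocyte library 2 or 3. Lgr4 differed by -0.14 ± 0.37 on the log2 scale (adjusted p = 0.778).

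On the secretory side, SecPDG cells were set against Tuft cells and EECs. Tuft cells differed from SecPDG in 1 member, Nkd1, which was 11.4-fold higher (log2 fold change 3.52 ± 0.61, adjusted p = 0.000382), beside 0.865% of all genes higher and 0.0351% lower, and no member was lower. EECs differed from SecPDG in 4 members (8.34% of all genes lower, 6.65% higher): Sox9 was 8.95-fold lower (adjusted p = 5.39e-05), Rnf43 3.45-fold lower (adjusted p = 0.000606) and Axin2 2.97-fold lower (adjusted p = 0.00325), while Nkd1 was 5.26-fold higher (adjusted p = 0.00663). The Nkd1 call in EECs was lost in 6 of 22 fits without 1 library: SecPDG libraries 1 to 4, Tuft library 4 and EEC library 1. It was also lost with the 2 types alone in the fit, and the Axin2 call with DESeq2's scaling factors, library totals, the 2 types alone or DESeq2.

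The 2 progenitor types were not told apart by these genes in the main edgeR fit. SecPDG against AbsPro gave 0 of 10 members called (1.01% of all genes were lower and 1.21% higher). Nkd1 was 4.28-fold higher in SecPDG (adjusted p = 0.0823) with no overlap of libraries, at low counts in both types. Sox9 was 2.09-fold higher in SecPDG (adjusted p = 0.178), also with no overlap of libraries. DESeq2 called Sox9, as did edgeR with DESeq2's scaling factors or with the 2 types alone in the fit. Lgr5 stood at 608 ± 263 (SD, n = 3) in AbsPro and 527 ± 129 (n = 4) in SecPDG, a difference smaller than the spread between libraries.

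**Figure D3:**
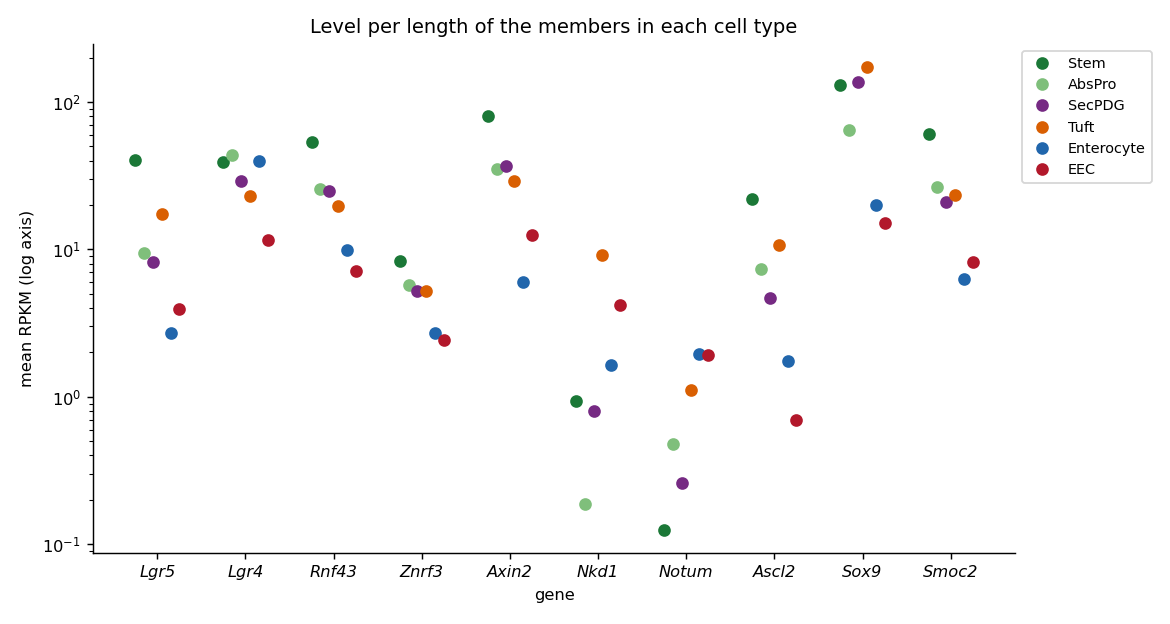
Mean RPKM of each member in the 6 cell types on a log axis, with a point for each type's mean over its libraries. Sox9 is highest in every type but Enterocytes, and Lgr4 and Lgr5 are at 39.4 and 40.3 in Stem cells but at 39.8 and 2.70 in Enterocytes.

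Within a type the members ranked differently by length-corrected level. In Stem cells the order was Sox9 (131 RPKM), Axin2 (79.9), Smoc2 (60.5), Rnf43 (53.3), Lgr5 (40.3), Lgr4 (39.4), Ascl2 (21.9), Znrf3 (8.32), Nkd1 (0.937) and Notum (0.126). In Enterocytes Lgr4 led with 39.8 ± 20.5 RPKM (SD, n = 5) and Sox9 followed with 20.0 ± 13.4, and Enterocyte library 4 was the highest of that type for both. Tuft cells kept Sox9 on top at 172.5 ± 27.3, and Nkd1 rose there to 9.14 ± 3.77, above Znrf3 at 5.19 ± 1.09.

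Across the 22 libraries, the genes most like Lgr5 by Pearson correlation of log2 TMM-scaled counts were Gas7 (r = 0.919), Cd44 (0.902), Smoc2 (0.899), Cdk6 (0.865) and Axin2 (0.858), out of 13187 genes compared. Those most like Axin2 were Cdk4 (r = 0.964), Pold1 (0.962), Ints7 (0.959), Dnmt1 (0.959) and Ipo9 (0.957), of which Cdk4 drives the G1 phase, Pold1 copies DNA and Dnmt1 maintains DNA methylation. Cd44 was a sort gate, so its place is in part what the sort set. Among the members, Ascl2 ranked 20 in likeness to Lgr5, Znrf3 28, Rnf43 62 and Sox9 93, whereas Nkd1 ranked 7378 (r = 0.07) and Lgr4 7765 (r = 0.03). These correlations describe 22 libraries in 6 clusters of cell types with different depths and carry no test. With each type's mean removed, r between Lgr5 and Axin2 was 0.16 and between Lgr5 and Rnf43 -0.48, while Ascl2 kept 0.62 and Smoc2 0.58.

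The rest of the pathway gave a background for the members. Of 112 other genes listed by role, 111 were in the files, all were tested, and 74 had a mean of at least 50 counts. AbsPro and SecPDG each had 1 of them lower than Stem cells, Tuft cells 5, Enterocytes 20 and EECs 11, and in the same order 0, 2, 3, 5 and 6 were higher. The 1 gene lower in AbsPro was Cd44, on which the cells were sorted. Of the 111, 4.5%, 18% and 9.91% were lower for the last 3 of these types, beside 2.03%, 7.93% and 7.45% of all genes, and 2.7%, 4.5% and 5.41% were higher, beside 4.42%, 5.6% and 6.58%, so that the share lower in EECs was close to that of all genes and the shares higher were below it. The lists were drawn up with earlier results of these libraries known. Of the genes named below, some were picked because they were called with the largest changes in their role. These are Wnt3, Fzd7, Lrp5, Wif1, Trabd2b, Axin1, Csnk1e, Tle2, Prox1, Cdca7 and Slc12a2. Their p-values are those of genes selected by outcome and do not stand for their lists.

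Of the ligands and their relatives, Wnt3, a ligand made by crypt epithelium, was the one of the 19 Wnt genes that was called. Of the 19, 5 had a mean of at least 50 counts, and the others could not be called. It was listed at 0.0 to 2.7 counts in Stem cells and at 260.3 and 279 in EECs (adjusted p = 0.000692), and was also called higher in Tuft cells (0.0 to 193) and Enterocytes (29.7 to 157). The family level was 6.0% of the Wnt3 reads in EECs, 12% in Tuft cells and 20.7% in Enterocytes. None of the R-spondins or Lgr6, the third R-spondin receptor of the Lgr family, was called, and Lgr6 was at 20.6 and 517 in the EECs against 0.0 to 27.5 in Stem cells (adjusted p = 0.0191). Only 1 of these 5 genes had a mean of at least 50 counts, so the others could not be called.

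Among 15 receptors, Fzd7 was lower in Tuft cells (263 ± 57.9 SD, n = 5, against 932 ± 206, n = 3, adjusted p = 0.000131) and in Enterocytes (adjusted p = 9.74e-05). Lrp5 was lower in Enterocytes (adjusted p = 0.00311) and stood at 3420 ± 494 in Tuft cells against 3396 ± 275 in Stem cells (adjusted p = 0.985). Of the secreted and membrane inhibitors, 16 were in the files and 4 had the mean of at least 50 counts that a call needs. Wif1, which binds Wnt ligands, stood at 1262 and 3990 in EECs and at 0.0 to 16.8 in Stem cells (adjusted p = 8.56e-07). Trabd2b, a membrane protease that cleaves Wnts, was at 546 and 600.2 in EECs and 6.9 to 53.2 in Stem cells (adjusted p = 0.00395).

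In the degradation complex and Dishevelled list, 2 of 15 genes were lower in Enterocytes, Axin1 (744 ± 227 against 1777 ± 178, adjusted p = 0.0039) and Csnk1e (adjusted p = 0.000418), and Axin1 was also lower in EECs (adjusted p = 0.00743). Ctnnb1, which encodes beta-catenin, did not pass in any type and stood at 5615 ± 1941 in Enterocytes against 10027 ± 471 in Stem cells (adjusted p = 0.0569). Its transcription partners diverged in Enterocytes, where Tcf7 was lower (93.3 ± 35.2 against 374 ± 54.2, adjusted p = 0.00378) and Tcf7l1, known as a repressor, higher (578 ± 272 against 192 ± 131, adjusted p = 0.00709). Tcf7l2 in Enterocytes was at 2420 ± 557 against 1121 ± 132 and just missed the threshold (adjusted p = 0.0101), Lef1 was low with 7.0 ± 4.3 counts in Stem cells, and the corepressor gene Tle2 was at 832 and 1285 in EECs against 7.6 to 61.5 (adjusted p = 8.91e-06).

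Of 12 other Wnt target genes, 1 was lower in AbsPro, 3 in Tuft cells, and 5 each in Enterocytes and EECs, and 1, 1, 1 and 2 were higher in SecPDG, Tuft cells, Enterocytes and EECs. Cd44, the surface protein used in the sort, was lower in AbsPro (log2 fold change -2.04 ± 0.34, adjusted p = 0.0012). Stem cells were gated on the highest Cd44, so this difference is in part what the sort set. Cd44 is also among the genes counted as lower in Tuft cells, Enterocytes and EECs. Myc, a driver of growth, was lower in Tuft cells (788 ± 297 against 2927 ± 426, adjusted p = 0.00165), Enterocytes (adjusted p = 4.04e-07) and EECs (adjusted p = 4.04e-05). Ephb2, a receptor that sorts cells along the crypt, was at 4114 ± 618 in Tuft cells and 4014 ± 196 in Stem cells and was lower in Enterocytes (log2 fold change -2.12 ± 0.30, adjusted p = 4.06e-06) and EECs (-2.74 ± 0.43, adjusted p = 1.68e-05).

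Prox1, a homeobox factor of tuft and enteroendocrine cells, ran against that order as Nkd1 did. It was at 0.0 to 28.8 counts in Stem cells, at 156 to 345 in SecPDG (adjusted p = 0.000338), at 437 to 865 in Tuft cells (adjusted p = 1.41e-06) and at 602 and 1207 in EECs (adjusted p = 9.98e-07). In Enterocytes it was at 76.4 to 134.5 (adjusted p = 0.00212), where the family level was 36.9% of its reads. Of 10 other genes reported for crypt base stem cells, 7 were lower in Enterocytes, 5 in EECs, 1 in Tuft cells, 1 in SecPDG and 0 in AbsPro, and none was higher. Cdca7, a nuclear protein of dividing cells, was the one called in Tuft cells and SecPDG, at 741 ± 258 in Tuft cells (adjusted p = 1.08e-05) and 1203 ± 256 in SecPDG (adjusted p = 0.00472) against 3451 ± 321 in Stem cells. Slc12a2, an ion transporter of crypt base cells, was at 3775 ± 2609 in Enterocytes and 277 and 1128 in EECs against 29742 ± 4254 in Stem cells (adjusted p = 1.42e-05 and 2.46e-06).

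**Figure D4:**
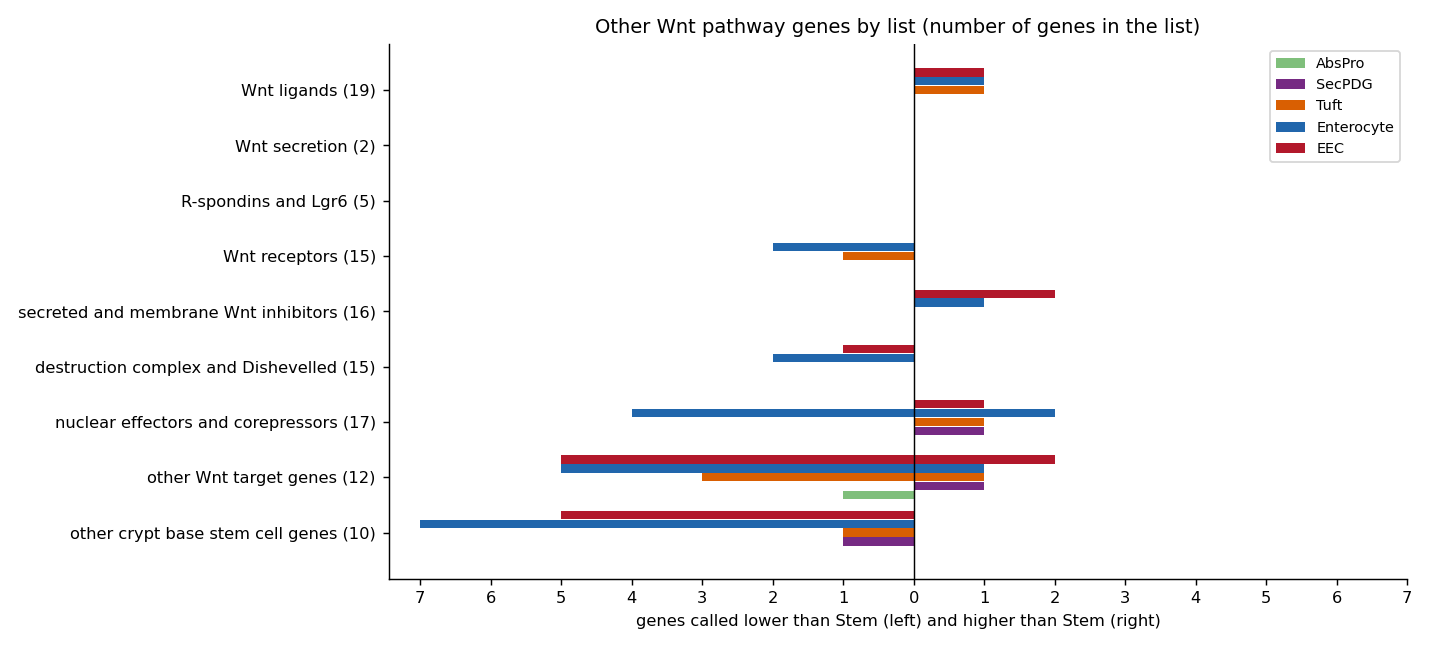
Number of genes of each Wnt pathway list called lower (left of 0) or higher (right of 0) than in Stem cells, with a bar for each cell type and the number of genes in the files beside each list's name. The 10 members are not among these lists. The longest bar is that of the other crypt base stem cell genes in Enterocytes, 7 of 10 lower.

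Exon skipping of the members was counted in the authors' event tables as reads that include or skip an exon, listed for each library of a type in an order not tied to the library numbers used above. Lgr4 alone had events in all 5 tables, and Axin2 and Smoc2 had events in the SecPDG table. In Stem cells, Lgr4 exon 2, printed above, had 113, 192 and 135 inclusion counts with 0, 0 and 22 skipping counts, so a single library held all the skipping, 14.0% of its 157 counts (95% exact Clopper-Pearson interval 9.0% to 20.4%). This share and its interval are of raw counts. Corrected for the lengths of the including and skipping forms, inclusion in that library was 78%. No skipping of exon 2 was counted in any library of the other 5 types, over 392 counts for AbsPro, 297 for SecPDG, 292 for Tuft cells, 456 for Enterocytes and 55 for EECs. None of these differences passed (adjusted p = 0.585 to 0.923 in edgeR). Intervals cover counting error only.

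Exon 3 of Lgr4 was the single event of the 10 genes that was called. Stem libraries had 151, 112 and 128 inclusion counts with 0, 0 and 6 skipping counts. One of the 2 EEC libraries had no counts at the exon, and the other had 0 inclusion and 51 skipping counts, a skipping share of 100.0% (95% exact interval 93.0% to 100.0%). The event was called in EECs (adjusted p = 0.00152 in edgeR, 1.8% of 1445 events called), a value that rests on 1 library. It was lost without the second or the third Stem library listed, could not be tested without that EEC library, and was lost with an estimated negative binomial dispersion, an alternative added after seeing the data (adjusted p = 0.854). The 51 skipping counts join exon 2 to exon 4. The exon 4 event is itself defined with exon 3 left out, so its inclusion form uses the same join. The same EEC library had 51 inclusion and 0 skipping counts at exon 4. These may be the same reads counted again and are no separate evidence.

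In the other types exon 3 was mostly included. SecPDG libraries had 10, 35, 59 and 43 inclusion counts with 0, 1, 0 and 5 skipping counts, Tuft libraries 42, 14, 0, 33 and 86 with 0, 2, 0, 3 and 0, and Enterocytes 54, 27, 9, 115 and 21 with 0, 2, 0, 0 and 0. AbsPro had 317 inclusion and 0 skipping counts over its 3 libraries. Adjusted p was 0.702 to 0.84 in these 4 types, and none of the 4 passed. Among the members, 0 events were called in AbsPro (0.0517% of all events), SecPDG, Tuft cells and Enterocytes, where 0% of events were called by edgeR in the last 3. No member event reached an unadjusted p under 0.05 in those 4 comparisons, while 299 of 4650 events did in SecPDG, 212 of 4726 in Tuft cells and 247 of 3789 in Enterocytes.

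Skipping was rare for Axin2 and Smoc2. Axin2 exons 4 and 9 of 11 (chr11:108939312-108939414 and chr11:108944510-108944605) had 413 and 202 inclusion counts and no skipping in Stem cells, and 157 and 156 inclusion counts with 1 and 2 skipping counts in SecPDG. Smoc2 exon 10 of 13 (chr17:14397521-14397623) had 277 inclusion counts and no skipping in Stem cells, and 77 with 1 in SecPDG. Adjusted p was 0.752 for each, so no difference was detectable at this depth.

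The choice of polyadenylation site was given as the share of transcripts that use the distal site. Axin2 (transcript NM_015732, 3' end at chr11:108949269-108950781 on the plus strand) had shares of 0.28, 0.33 and 0.32 in Stem cells, 0.49, 0.53 and 0.41 in AbsPro, 0.30, 0.31, 0.18 and 0.29 in SecPDG and 0.06, 0.13, 0.19, 0.26 and 0.27 in Tuft cells. All AbsPro libraries were above and all Tuft libraries below the Stem range, while SecPDG overlapped it. None passed the test of limma over all transcripts (log2 odds 1.00 ± 0.29 and adjusted p = 0.922 in AbsPro, -0.30 ± 0.32 and 0.861 in SecPDG, -1.13 ± 0.57 and 0.854 in Tuft cells).

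Few transcripts were called at all, 0% of 4976 in AbsPro (196 had an unadjusted p under 0.05), 0.0237% in SecPDG and 0.0614% in Tuft cells. Of the members, 6 could be tested in AbsPro, 5 in SecPDG and 3 in Tuft cells, and 0 were called. Axin2 in AbsPro was the one with an unadjusted p under 0.05. Members had no transcript with enough shares in Enterocytes or EECs. Sox9 had a mean distal share of 0.183 ± 0.038 (SD, n = 3) in Stem cells, 0.18 ± 0.046 (n = 3) in AbsPro, 0.215 ± 0.040 (n = 4) in SecPDG and 0.21 ± 0.041 (n = 5) in Tuft cells, with overlapping libraries. Lgr4 lay at 0.247 ± 0.012 in Stem cells and at 0.11 to 0.27 in both progenitor types. Znrf3 had 0.58, 0.24 and 0.24 in Stem cells and 0.09, 0.21, 0.21 and 0.21 in SecPDG, without overlap and without a call (adjusted p = 0.847). Smoc2 and Rnf43 spread from 0.27 to 1.00 between libraries.

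**Figure D5:**
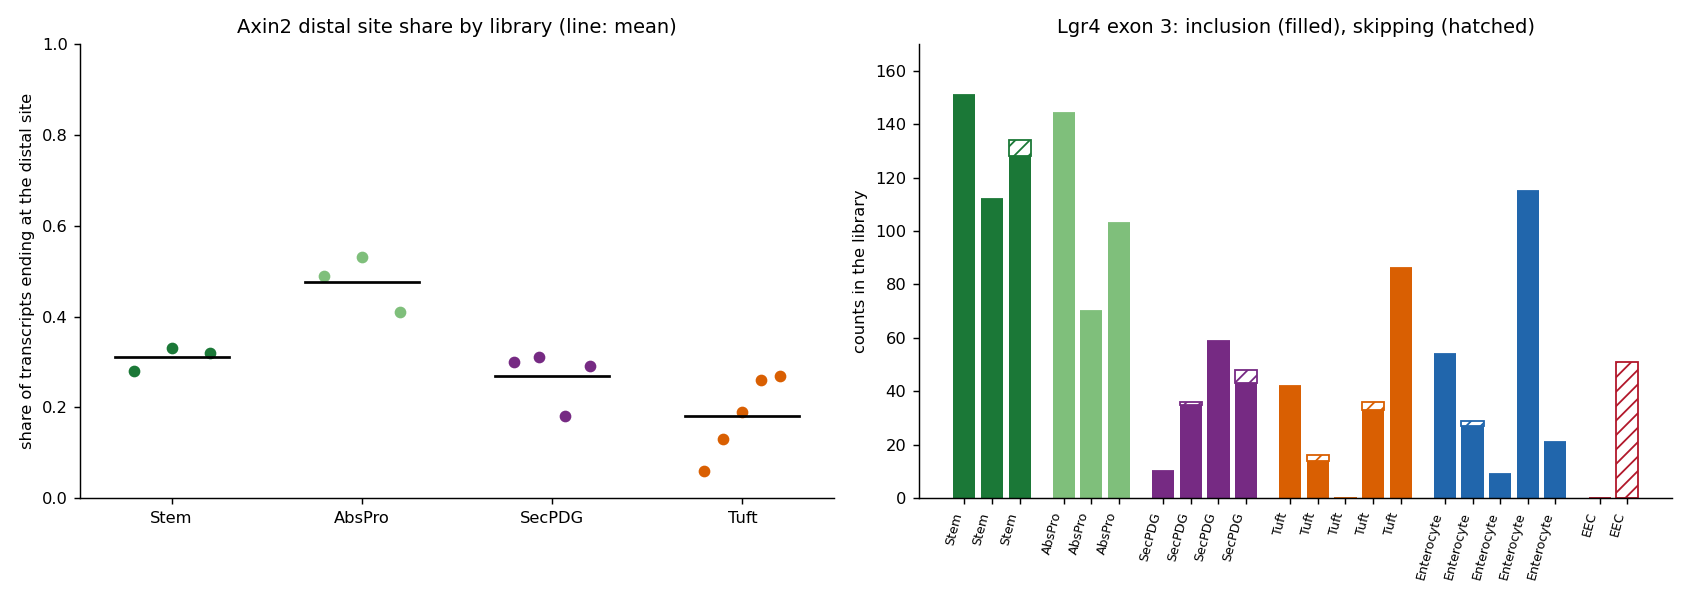
Left, distal site share of Axin2 in each library of Stem, AbsPro, SecPDG and Tuft cells, with the group mean as a line. Right, inclusion and skipping counts at Lgr4 exon 3 for each library listed, where 1 EEC library has 51 skipping and 0 inclusion counts and the other EEC library has none.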

How the data were processed

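RNA sequencing libraries of 6 sorted colon cell types (22 libraries) were used. Per the labels and the study's methods, the authors trimmed reads, aligned them to mm10 with STAR (version 2.5.2a) and counted them per gene with HTSeq (0.6.1p1) without regard to strand, and the deposited counts are raw. The submitters' processing notes also name FastQC (0.11.7), SAMtools (1.3), bedtools (2.25.0), DESeq2 (1.16.1) and R (3.4.1). The authors deposited skipped exon tables from rMATS with inclusion and skipping counts, and polyadenylation tables from DaPars with the fraction of transcripts ending at the distal site (rounded, depth unknown). In both, libraries are listed in an order not tied to library numbers. The authors' own fold and p-value columns, and a further set of splicing tables from MAJIQ, were not used.

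Lines for reads on no gene were left out. Genes were filtered with filterByExpr, scaled by TMM and tested in 1 edgeR quasi-likelihood fit of the 22 libraries by cell type, with Benjamini-Hochberg adjustment over 22781 genes. Lengths for RPKM, from the GENCODE annotation, matched 98.5% of 24421 genes. Skipped exons with a mean of at least 10 counts per library in both types were tested with edgeR on inclusion against skipping counts within each library, and distal site fractions with limma on log2 odds (0.01 added) where at least 2 libraries per type had a value. Events were called at adjusted p under 0.05. The negative binomial dispersion of the exon test was set to 0, leaving the spread between libraries to the quasi-likelihood dispersion. This was decided after a simulation and after a first fit of the real tables. The alternatives were DESeq2, other scalings, no filter, the 2 types alone in the fit, a replicate block and each library left out. The tests were tried on simulated data, and the criterion set for the gene test was relaxed after it had failed. In that trial, for Tuft against Stem cells, the smallest changes tried were missed and larger ones were missed in part. The smallest were about the size of the Rnf43 and Axin2 differences in progenitors that did not pass. Not passing therefore does not show that a difference is absent.

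The members and gene lists were chosen with earlier results of these data known. Beside the members, 9 pathway genes were named in advance. For the other named genes only the rule was set in advance. It took up to 2 called genes with the largest change in each role, and the 5 genes most like Lgr5 and Axin2. Those genes were thus picked by their outcome in these data. No pair of libraries of the same cell type agreed within sampling noise (lowest chi-square per gene 10.8), and pairs across types were not compared. Tools were R 4.3.3, edgeR 4.0.16, limma 3.58.1, DESeq2 1.42.0, Python 3.11.15 and matplotlib 3.10.9.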

Additional observations from a re-analysis of the deposited data

Results flagged for a closer look

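Of 30 groups of 4 or 5 libraries examined, 2 held a library set apart from the rest, where chance gives about 1 in 20. Lgr5 in SecPDG library 4 stood at 717.9 normalised counts, and the nearest of the other 3 libraries at 482.2, a gap of 0.852 of the range of the group. Axin2 in Enterocyte library 4 stood at 594.2, and the nearest of the other 4 at 332.3, a gap of 0.785 of the range. The calls of Lgr5 in SecPDG and of Axin2 in Enterocytes against Stem cells were kept without any 1 library.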

How the results depend on the processing

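The number of the 10 members called depended most on the middle tier of differences. At adjusted p under 0.05 it was 4 in SecPDG against Stem, 2 in Tuft against SecPDG and 9 in EEC against SecPDG. With DESeq2's scaling factors it was 3 in Tuft against Stem and 1 in SecPDG against AbsPro, and with library totals 2, 4 and 3 in AbsPro, SecPDG and Tuft against Stem. In AbsPro the 1 member called with DESeq2's scaling factors was Rnf43 in place of Lgr5, and Enterocyte against AbsPro gave 4 with either scaling against 6. Without a filter on low counts SecPDG against Stem gave 1. With the 2 types alone in the fit it was 4, 5 and 1 in AbsPro, SecPDG and EEC against Stem, 2 in Tuft and 2 in EEC against SecPDG, and 1 in SecPDG against AbsPro. DESeq2 gave 4, 4 and 3 in AbsPro, SecPDG and Tuft against Stem, 2 in Tuft against SecPDG and 1 in SecPDG against AbsPro. Member exons called in EECs were 0 with an estimated negative binomial dispersion, chosen after seeing the data. The cause was not tested.

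Leaving out 1 library at a time gave 0 to 2 members called for AbsPro, 1 to 4 for SecPDG, 3 to 5 for Tuft, 7 for Enterocyte and 7 to 9 for EEC against Stem, 3 to 8 in Enterocytes against AbsPro, 3 to 7 in EEC against SecPDG, and 0 to 1 exons in EECs. Signs turned on the log2 scale for Notum (-0.32 to 2.58 in AbsPro, -5.04 to 4.91 in EECs), Nkd1 in SecPDG (-0.42 to 0.065) and Lgr4 in Enterocytes (-0.33 to 0.16), all uncalled. The uncalled Sox9 value in SecPDG was -0.17 with library totals and -0.072 with the replicate block, and that of Lgr4 in Enterocytes -0.056 without a filter and -0.26 with the block.

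Libraries share only a replicate number: deviations of same-numbered libraries had r of -0.39 to 0.50 (44 pairs) and of others -0.55 to 0.62 (154 pairs). With the replicate block, 1, 3, 5, 7 and 8 members were called in AbsPro, SecPDG, Tuft cells, Enterocytes and EECs against Stem. No paired analysis was possible for exons and polyadenylation sites because their columns carry no library numbers. All 7 Enterocyte calls, Rnf43, Axin2 and Nkd1 in Tuft cells, Lgr5 in SecPDG and Rnf43 in EECs against Stem passed in every alternative and without any 1 library. The EEC group, with 2 libraries and the lowest depth, limits what could be told there.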
